A study of Mus musculus with 3 samples.

Results

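The NRF2 pathway was followed through 10 genes in 1 culture of mouse esophageal cells. Nfe2l2 encodes the transcription factor NRF2, and Keap1 encodes the protein that marks NRF2 for degradation. The other 8 genes, Nqo1, Hmox1, Gclc, Gclm, Txnrd1, Slc7a11, Srxn1 and Gpx2, are established NRF2 targets. The genes were listed by symbol, not by their values, and all 10 were found among the 32287 features of the count matrix. They gave 50974 of the 45443280 UMIs (unique molecular identifiers, each standing for 1 captured transcript molecule) in kept cells.

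In an unstressed cell, KEAP1 binds NRF2 and hands it to a ubiquitin ligase, so that NRF2 protein stays low while its mRNA is present. Oxidants and electrophiles modify KEAP1, and NRF2 then accumulates, pairs with a small MAF protein and binds antioxidant response elements near genes for glutathione synthesis, thioredoxin recycling, quinone reduction and heme breakdown. Mutations that keep NRF2 active are frequent in human esophageal squamous cell carcinoma. The RNA counts used here show transcripts and carry no direct measure of NRF2 protein.

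The culture, called PC, came from esophageal organoids of mice with floxed Trp53 alleles. Trp53 was deleted with Cre from an adenovirus that also carries EGFP, and Cdkn2a was then knocked out with CRISPR/Cas9, so every cell described here belongs to a line carrying both alterations. The cells expressed Cas9 constitutively, carried a transfected barcode library, went through 3 passages and were sorted as live RFP-positive cells before droplet sequencing with a 10x Genomics 3' kit. The labels list 3 libraries from this culture, for gene expression, barcodes and scars, and 1 matrix was used, with no replicate and no unaltered control. No difference below could therefore be set against the spread between cultures, and no p-value is given.

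The matrix held 18116 barcodes, none of them repeated. The 14925 barcodes kept as cells passed 3 limits, a minimum of 500 genes, a minimum of 1000 UMIs and a maximum of 20% mitochondrial UMIs. The median cell had 2955 UMIs and 1499 genes. The cells fell into 13 clusters, computed without the 10 genes and without 91 other pathway genes, and 11 of them held at least 100 cells. The clusters are referred to by number, in order of size. Cluster 3 (2070 cells, led by Nusap1, Ccna2 and Cdc20) was cycling-like, with all 10 cycling markers raised. Cluster 4 (1865 cells, led by Grem1, Ccn5 and Cacna1c) was mesenchymal-like, with 8 of 14 mesenchymal markers raised, among them Vim, and with 5 of 8 interferon and 4 of 7 hypoxic markers raised as well. Cluster 10 (123 cells) was simple-epithelial-like and cluster 11 (112 cells) interferon-responding-like. The largest unnamed ones were cluster 1 (4448 cells, led by Prl2c3, Prl2c2 and Sprr1b), cluster 2 (3133 cells, with Krt7 as its first leading gene), cluster 5 (1430 cells, led by Ltf, Gabrp and Lcn2) and cluster 6 (748 cells, led by Zfpm2 and Aff2). Epithelial identity was visible in the basal markers, Krt5 and Krt14 among them, whose summed level was 2217 to 6998 CPM in clusters 1 to 3, 5 to 9 and 11, 1547 CPM in cluster 10 and 661 CPM in the mesenchymal-like cells. In the clusters other than 4 and 10, simple epithelial markers summed to 728 to 3465 CPM and differentiated squamous markers to 415 to 1276 CPM. Krt15, a basal marker, had no UMI in clusters 6, 10 and 11. Squamous identity is therefore not read from the basal sum alone. A level in CPM is the number of a gene's UMIs in every 1000000 UMIs of the cells pooled. Immune markers summed to at most 14.8 CPM and endothelial markers to at most 5.26 CPM in any cluster of at least 100 cells.

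NRF2 binds the antioxidant response element, whose core was searched as TGACNNNGC on both strands in RefSeq promoters (GRCm38.p6), each spanning 250 bases before to 50 bases after a transcription start. The table held 10 promoters of 8 of the genes, Txnrd1 having 3 start sites. A match was found in 4 of these promoters, in 4 genes, while 12.4% of all 32851 promoters in the table held one. The matches are shown because they place the letters of the element beside genes whose levels follow. The capitals mark the core, each sequence reads 5′ to 3′ on the gene's own strand, and a core on the opposite strand therefore reads GCNNNGTCA.
Nfe2l2, chr2:75704870-75704913, minus strand: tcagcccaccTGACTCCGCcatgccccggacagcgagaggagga
Gclm, chr3:122245398-122245456, plus strand: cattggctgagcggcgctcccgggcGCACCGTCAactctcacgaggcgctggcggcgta
Txnrd1, the second start site, chr10:82859089-82859147, plus strand: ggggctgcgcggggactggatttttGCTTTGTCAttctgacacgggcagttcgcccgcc
Srxn1, chr2:152105542-152105570, plus strand: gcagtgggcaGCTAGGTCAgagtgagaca
The core lay 240 to 232 bases before the start in Nfe2l2, 134 to 126 before it in Gclm, 92 to 84 before it in Txnrd1 and at bases 29 to 37 after it in Srxn1. These matches are a description of the letters, and binding was not measured. For Keap1, Nqo1, Slc7a11 and Gpx2 these letters were not in the window.

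Gpx2 supplied most of the target transcripts in these cells. It encodes a selenium-dependent glutathione peroxidase of epithelia, and lies on chromosome 12 from 76792333 to 76795554 on the minus strand (GENCODE M21, GRCm38), overlapping Fntb on the opposite strand. It had 32527 UMIs, or 716 CPM (95% Poisson interval 708 to 724), and a UMI was found in 66.2% of kept cells. Of the 45446 UMIs of the 8 targets, 71.6% came from Gpx2. This share describes captured molecules and sets no order of expression among genes.

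The regulators were both detected. Nfe2l2 (ENSMUSG00000015839, chromosome 2, 75675513 to 75704641, minus strand) had 4192 UMIs, a level of 92.2 CPM (89.5 to 95.1), with a UMI in 23.4% of kept cells. Keap1 (ENSMUSG00000003308, chromosome 9, 21229730 to 21239361, minus strand), which overlaps Gm16754 on the opposite strand, had 1336 UMIs and 29.4 CPM (27.8 to 31.0). Each gene's counting error was thus small at the level of the whole culture, whereas single cells carried too few molecules to be called positive or negative.

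The glutathione branch comprised Gclc and Gclm, the catalytic and modifier subunits of the rate-limiting enzyme of glutathione synthesis, and Slc7a11, the cystine importer xCT that supplies its substrate. Gclc (chromosome 9, 77754535 to 77794485, plus strand) was at 26.7 CPM (25.2 to 28.2) from 1213 UMIs. Gclm (chromosome 3, 122245557 to 122270732, plus strand; Gm17494 overlaps it on the opposite strand) was at 96.2 CPM (93.3 to 99.1) from 4370 UMIs. Slc7a11 (chromosome 3, 49892526 to 50443614, minus strand; Gm37854 overlaps it on the opposite strand) was at 25.5 CPM (24.1 to 27.0) from 1160 UMIs. All 3 were measured with over 1000 UMIs, enough to compare the larger clusters.

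The remaining targets act on thioredoxin, quinones and heme. Txnrd1, the cytosolic thioredoxin reductase (chromosome 10, 82833951 to 82897712, plus strand; it overlaps Eid3 on the same strand and Gm38560 on the opposite one), was at 44.9 CPM (42.9 to 46.8). Srxn1, sulfiredoxin, which repairs overoxidised peroxiredoxins (chromosome 2, 152105516 to 152111376, plus strand), was the sparsest, with 336 UMIs and 7.39 CPM (6.62 to 8.23). Nqo1, a quinone reductase often read as a marker of NRF2 activity (chromosome 8, 107388225 to 107403206, minus strand), was at 39.0 CPM (37.2 to 40.8). Hmox1, heme oxygenase-1, which is also induced by heme (chromosome 8, 75093621 to 75100589, plus strand), was at 44.7 CPM (42.8 to 46.7). Levels of genes that overlap a neighbour carry the added uncertainty of how shared reads were assigned.

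**Figure D1:**
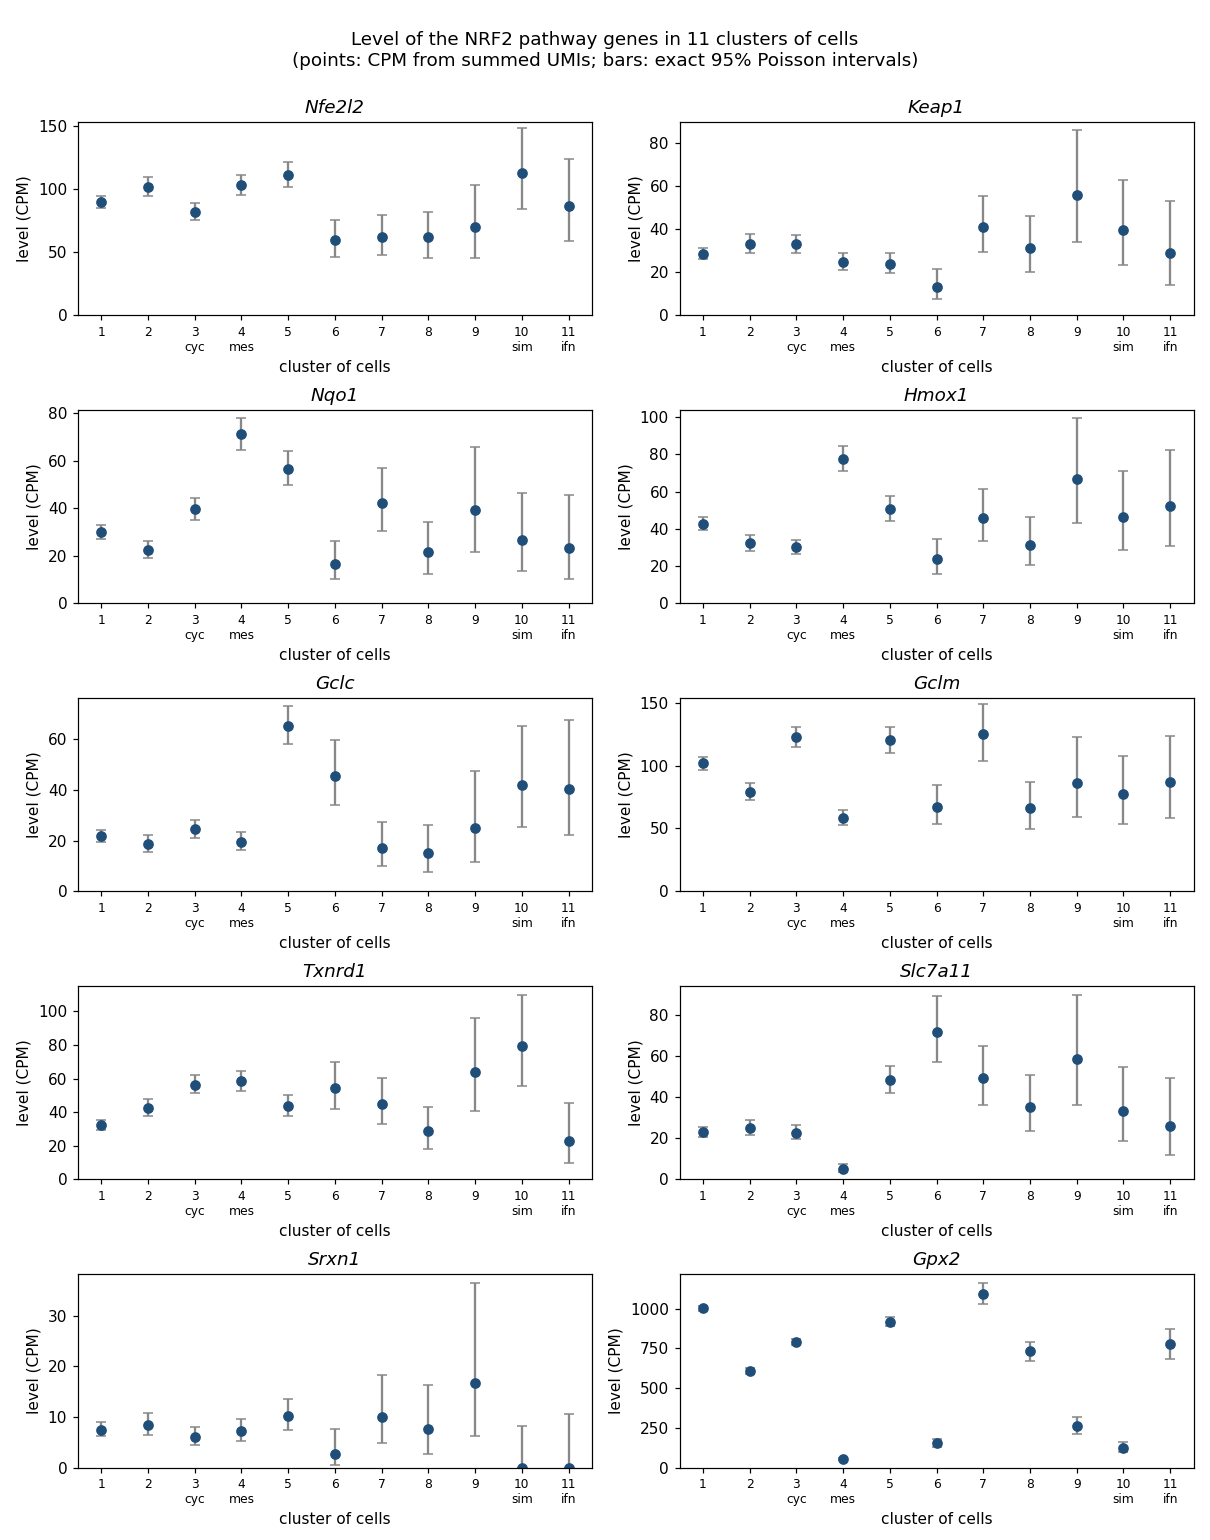
Level of each of the 10 genes (CPM, linear axis) in the clusters of at least 100 cells, with exact 95% Poisson intervals as bars. Gpx2 is lowest in the mesenchymal-like cluster 4 at 51.5 CPM and highest in cluster 7 at 1093 CPM, while Nfe2l2 stays between 59.6 and 112.5 CPM.

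The 10 genes differed in how evenly they were spread over the cells of the culture. A gene was called different between a pair of clusters when its levels were at least 2-fold apart, the higher one reached 10 CPM and the Poisson intervals did not overlap. Of the 10 genes, 8 were called in at least 1 of the 55 cluster pairs, against 87.5% of the 10824 genes that reached 10 CPM in some cluster. A share of 8 in 10 is thus close to that of genes at large. The order of levels given below covers the 11 clusters of at least 100 cells.

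Nfe2l2 was called in none of the 55 pairs of these clusters, but that count did not hold under other settings. Nfe2l2 was called in at least 1 pair with the stricter minimum of genes and UMIs, with at most 10% mitochondrial UMIs, without the cells of the highest doublet scores, at Leiden resolutions 0.4 and 1.0, with the pathway genes not held out and at a call ratio of 1.5. Its lowest level was 59.6 CPM, in cluster 6, and its highest 112.5 CPM, in cluster 10, a 1.89-fold range. All 10 pairs of neighbours in the order of its levels had overlapping intervals. Keap1 was called in 8 pairs, with 55.8 CPM in cluster 9 and 13.1 CPM in cluster 6, and no neighbours in its order were apart either.

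Gpx2 was called in the most pairs of the 10, with 32. It also had the most UMIs, which narrow the intervals, so counts of called pairs and of neighbours apart favour abundant genes. Its highest level was 21.2-fold its lowest. Its level was 1093 CPM in cluster 7, 1003 in cluster 1, 917 in cluster 5, 788 in the cycling-like cells, 774 in cluster 11, 730 in cluster 8, 606 in cluster 2, 262 in cluster 9, 154 in cluster 6, 126 in cluster 10 and 51.5 in the mesenchymal-like cells. Among neighbours in that order, 7 of 10 had intervals apart; those of cycling-like cells and cluster 11, of clusters 11 and 8, and of clusters 6 and 10 overlapped. Gpx2 was thus at 606 CPM or more in 7 clusters and at 262 CPM or less in the other 4, the mesenchymal-like and the simple-epithelial-like cells among them.

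Slc7a11 followed with 23 called pairs. It stood at 71.8 CPM in cluster 6, 58.6 in cluster 9, 49.0 in cluster 7, 48.2 in cluster 5, 35.1 in cluster 8, 33.1 in cluster 10, 26.0 in cluster 11, 24.9 in cluster 2, 23.0 in cluster 1, 22.7 in the cycling-like cells and 5.20 in the mesenchymal-like cells. Only the last neighbouring pair, the cycling-like and the mesenchymal-like cells, had intervals that did not overlap. The mesenchymal-like cells thus stood apart at the low end, and the order above them was gradual.

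Gclc was called in 15 pairs, with 65.2 CPM in cluster 5 and 15.1 CPM in cluster 8. Its partner Gclm was called in 3 pairs, with 125 CPM in cluster 7 and 58.6 CPM in the mesenchymal-like cells. The subunits of one enzyme were therefore highest in different clusters, although the Gclm level of cluster 5, 120 CPM, lay within the interval of its highest level.

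Nqo1 was called in 13 pairs and Hmox1 in 8, and among the 11 clusters of at least 100 cells both were highest in the mesenchymal-like cells. In the smaller clusters, Hmox1 reached 135 CPM (84.7 to 205) in the 77 hypoxic-like cells of cluster 13, from 22 UMIs, and Nqo1 81.7 CPM (56.2 to 115) in the 90 cells of cluster 12. Cluster 12, which is unnamed, had all 10 cycling and 8 of 14 mesenchymal markers raised. Nqo1 was at 71.0 CPM in the mesenchymal-like cells and at 16.6 CPM in cluster 6. The next level among the 11 clusters, 56.6 CPM in cluster 5, had an interval apart from that of the mesenchymal-like cells. Hmox1 was at 77.5 CPM in the mesenchymal-like cells, at 67.0 CPM in cluster 9 and at 23.6 CPM in cluster 6. In cluster 9 the Hmox1 level came from 24 UMIs in 9 cells, so a few cells set it, and its interval overlapped that of the mesenchymal-like cells.

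Txnrd1 was called in 6 pairs, and among clusters of at least 100 cells it ranged between 79.4 CPM in cluster 10 and 23.1 CPM in cluster 11; the smaller cluster 12 held 102 CPM (72.8 to 138). Srxn1 was called in none. Its levels were 16.7 CPM or lower, and no Srxn1 UMI was found in clusters 10 and 11, where 3 UMIs would have given 6.62 and 8.67 CPM. Srxn1 was called in at least 1 pair at Leiden resolutions 0.4 and 1.0, without the cells of the highest doublet scores and with the pathway genes not held out, so its count of 0 depends on how the cells were divided.

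Mesenchymal-like and cycling-like cells differed in 4 of the 10 genes, 1 higher and 3 lower in the mesenchymal-like cells. Cycling markers summed to 59.8 CPM in the mesenchymal-like and 3587 CPM in the cycling-like cells. Division and cell class therefore cannot be told apart in this comparison. The same rule called 27.1% of 9208 genes tested between these classes, 13.2% higher and 13.9% lower in the mesenchymal-like cells. The median log2 ratio was -0.33 over the 9 genes that reached 10 CPM in either class, which leaves out Srxn1, and -0.02 over all genes tested. With so few genes, neither this median nor the count of 4 in 9 is read as a property of the set. The genes called were Gpx2, Slc7a11 and Gclm, lower, and Hmox1, higher. Cluster 12, with cycling and mesenchymal markers raised, was in neither class. There the point levels of these 4 genes lay between those of both classes. Gpx2 was at 183 CPM (144 to 230) and Slc7a11 at 9.90 CPM (2.70 to 25.4) from 4 UMIs. Gclm was at 79.2 CPM (54.2 to 112) and Hmox1 at 54.5 CPM (34.1 to 82.5). Only the Gpx2 interval was clear of both class levels. That of Slc7a11 held both, and those of Gclm and Hmox1 held the mesenchymal-like level.

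Gpx2 was at 51.5 CPM (46.1 to 57.4) in mesenchymal-like and 788 CPM (768 to 808) in cycling-like cells, 15.3-fold lower (13.7 to 17.2). Slc7a11 was at 5.20 CPM (3.58 to 7.30) and 22.7 CPM (19.5 to 26.3), 4.37-fold lower (3.002 to 6.545). Gclm was at 58.6 CPM (52.8 to 64.8) and 123 CPM (115 to 131), 2.09-fold lower (1.86 to 2.37). The sizes for Gpx2 and Slc7a11 depended on the cells and clusters used. The cells whose doublet scores were highest, 10% of all, were left out and the rest clustered anew. This gave 2 cycling-like clusters in place of 1. The log2 ratio of Gpx2 was then -6.04 in place of -3.94 and that of Slc7a11 -3.13 in place of -2.13. With only the mesenchymal-like cells that held no UMI of Krt5, Krt14 or Epcam they were -7.66 and -2.78. Other glutathione peroxidases went the other way, with Gpx1 called 2.80-fold higher in mesenchymal-like cells (840 and 299.6 CPM) and Gpx4 at a ratio of 1.77, not called.

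Hmox1 went the other way, at 77.5 CPM (70.8 to 84.6) in mesenchymal-like and 29.98 CPM (26.3 to 34.1) in cycling-like cells, 2.58-fold higher (2.21 to 3.03). Nqo1 had the same direction, at 71.0 CPM (64.6 to 77.9) and 39.4 CPM (35.2 to 44.1), but its 1.801-fold ratio (1.56 to 2.09) missed the call at 2. Marker lists moved with this comparison too. Summed interferon markers were at 1335 CPM in the mesenchymal-like and 287 CPM in the cycling-like cells, and 7 hypoxic markers at 507 and 181 CPM. Their part in the Hmox1 and Nqo1 levels was not tested.

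The other 5 genes were not called. Nfe2l2 was at 103 and 81.8 CPM in mesenchymal-like and cycling-like cells, a ratio of 1.26 (1.12 to 1.40). Keap1 was at 24.9 and 33.0 CPM, a ratio of 0.753 (0.614 to 0.921). Nfe2l2 and Keap1 thus differed by less than the 4 called genes. For Gclc the ratio was 0.797 (0.631 to 1.004), for Txnrd1 1.04 (0.8999 to 1.19) and for Srxn1 1.21 (0.787 to 1.85), and their intervals all include 1.

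**Figure D2:**
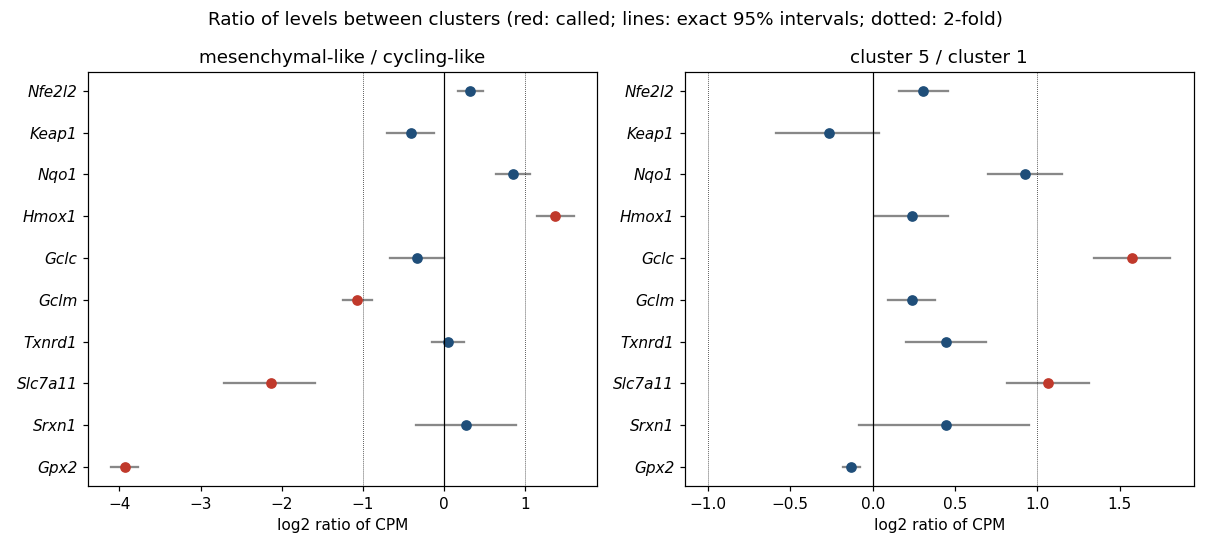
Ratio of each gene's level (log2 scale) between classes of cells, with 95% intervals from the exact binomial distribution. For mesenchymal-like over cycling-like cells, Gpx2, Slc7a11 and Gclm lie below a log2 ratio of -1 and Hmox1 above 1.

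With cluster 1, the largest, as the reference, Gpx2 and Slc7a11 were again called lower, and Nqo1 was called higher in place of Hmox1. The mesenchymal-like cells held 19.5-fold less Gpx2 and 4.43-fold less Slc7a11 than cluster 1, and 2.38-fold more Nqo1. These are 3 of the 9 genes that reached 10 CPM, beside 22.4% of all genes tested between these clusters, 12.8% higher and 9.60% lower. Hmox1 and Txnrd1, at ratios of 1.81 and 1.82, were not called here. Neither was Gclm, at 58.6 CPM in the mesenchymal-like cells and 102 CPM in cluster 1. Both comparisons share the mesenchymal-like cells, so they are not independent of each other.

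The Gpx2 count in mesenchymal-like cells was as low as that of epithelial genes. A Gpx2 UMI was found in 142 of these cells, 7.61%, against 90.0% in cluster 1, both clusters having a median of 3320 UMIs. The level, 51.5 CPM, was 5.13% of that in cluster 1, while Krt5 stood at 6.46%, Epcam at 6.37% and Krt14 at 17.98% of their cluster 1 levels. Conversely, Vim was found in 1.21% of cluster 1 cells. The Gpx2 share in mesenchymal-like cells is not read as a share of cells expressing it, and the source of these UMIs was not tested.

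The mesenchymal-like cells were then divided by whether they held a UMI of Krt5, Krt14 or Epcam, a division added after the values were seen. In the 798 cells with such a UMI (median 3668 UMIs), Gpx2 was at 104 CPM (93.0 to 116). In the 1067 cells without one (median 3100 UMIs), Gpx2 was at 3.89 CPM (2.07 to 6.66), from 13 UMIs. Gpx2 therefore followed the epithelial transcripts inside this cluster. The other genes moved less, with Slc7a11 at 7.30 CPM (4.58 to 11.1) and 3.30 CPM (1.65 to 5.90), Hmox1 at 67.4 and 86.6 CPM and Nqo1 at 68.1 and 73.7 CPM in the cells with and without such a UMI. The cells without such a UMI were also shallower, and the part of depth in this division was not tested.

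**Figure D3:**
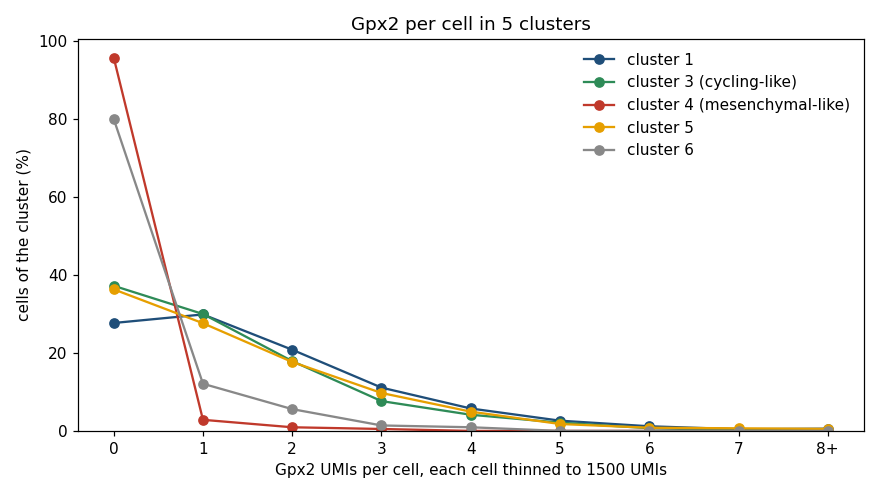
Share of cells (percent) with each number of Gpx2 UMIs after thinning every cell to 1500 UMIs, by cluster. The mesenchymal-like cells are nearly all at 0, with 4.26% holding a Gpx2 UMI, against 72.3% in cluster 1.

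The 91 other genes of the pathway were compared in the same way. Between mesenchymal-like and cycling-like cells, 73 of them reached 10 CPM, of which 14 were called higher and 10 lower in the mesenchymal-like cells, with a median log2 ratio of 0.04. This is near the 13.2% higher and 13.9% lower among all genes. Of the 17 glutathione genes that reached 10 CPM, 6 were called higher and 5 lower, beside the same shares. Those with the largest ratios were Gstm2, a mu-class glutathione transferase, 13.1-fold higher (77.0 and 5.87 CPM), Mgst2, a microsomal glutathione transferase, 4.59-fold higher, Gsta3, an alpha-class transferase, 10.2-fold lower (10.1 and 103 CPM) and Gsta4 3.86-fold lower. The called mu-class transferases, Gstm1, Gstm2 and Gstm5, were all higher in the mesenchymal-like cells and the called alpha-class ones, Gsta3 and Gsta4, both lower, a grouping made after the values were seen.

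Of the 14 partners and regulators that reached 10 CPM, 2 were called higher and 2 lower. Bach2, a repressor related to the NRF2 competitor BACH1, was 4.22-fold higher (50.1 and 11.9 CPM). Nfe2l3, a relative of NRF2, was 6.06-fold lower (4.25 and 25.8 CPM), and Palb2, whose protein can bind KEAP1, was 4.15-fold lower (2.68 and 11.1 CPM). In cluster 1 Palb2 was at 2.375 CPM, near the mesenchymal-like level, and it was not called between those clusters. Cul3 and Rbx1, the scaffold and the RING subunit of the ubiquitin ligase that KEAP1 serves, were not called, at ratios of 1.29 and 1.07.

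Among genes of the other lists that reached 10 CPM, those of thioredoxin and peroxiredoxin had 1 of 11 called higher and none lower, and the 6 genes for NADPH supply had no call. Iron and heme genes had 2 of 7 higher and 1 lower. Detoxification and export genes had 2 of 14 called in each direction, among them Abcc5, an efflux pump, 3.68-fold higher and Aldh3a1, an aldehyde dehydrogenase, 5.95-fold lower. Of 4 further antioxidant genes, 1 was called. This was Sod3, the secreted superoxide dismutase, with 208 UMIs and 32.8 CPM in mesenchymal-like cells and no UMI in cycling-like cells, at least 85.6-fold higher when 3 UMIs are taken as the limit of a count of 0.

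Slc7a11 is also known to respond to ATF4, the factor of the integrated stress response, so 14 genes of that response were read beside it. Between mesenchymal-like and cycling-like cells, 10 of them reached 10 CPM, of which 1 was called higher, Cebpb, and 2 lower, the serine synthesis genes Psat1 and Phgdh. Slc3a2, which encodes the heavy chain that pairs with xCT, was 2.64-fold lower in mesenchymal-like cells (68.97 and 182 CPM), on the same side as Slc7a11. Over the 13281 thinned cells, the highest Spearman correlation of Slc7a11 with any of the 14 genes was 0.0266, with Cebpb, and that with Slc3a2 was 0.0219. Values this small in sparse counts are no finding.

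Cluster 5, led by Ltf, Gabrp and Lcn2, held the highest Gclc level. It was set against cluster 1, a pairing chosen after the levels were seen, so the values are a description. Gclc was at 65.2 CPM in cluster 5 and 21.8 CPM in cluster 1, 2.99-fold higher (2.54 to 3.50). Slc7a11 was at 48.2 and 23.0 CPM, 2.10-fold higher (1.76 to 2.49). These 2 of 10 genes were called, both higher, beside 5.65% of all 8404 genes tested between these clusters, of which 3.43% were higher and 2.23% lower. Nqo1, at 56.6 and 29.8 CPM, had a ratio of 1.90 and was not called.

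The other pathway genes leaned the same way in cluster 5. Of 70 that reached 10 CPM, 9 were called higher and 1, Bach2, lower, beside the 3.43% and 2.23% of all genes. The higher ones were Aldh3a1 (7.34-fold), Gsto1 (7.15-fold), Aldh1a1 (5.36-fold), Gsta4 (2.86-fold), Gsta3 (2.68-fold), Idh1 (2.62-fold), Gstm1 (2.34-fold), Cbr3 (2.16-fold) and Mgst1 (2.02-fold), named after their values were seen. They are glutathione transferases, aldehyde dehydrogenases, a carbonyl reductase and an isocitrate dehydrogenase that makes NADPH. The median log2 ratio was 0.38 over the 10 genes, 0.30 over the 70 and -0.01 over all genes tested. Aldh3a1 and Gsto1 are also among the 10 leading genes of the cluster, and cluster 5 had a median of 3.49% mitochondrial UMIs against 2.70% in cluster 1.

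Cluster 6 carried the highest Slc7a11 level but differed from cluster 1 in most respects. Its median cell had 1220 UMIs and 9.74% mitochondrial UMIs. Slc7a11 was 3.12-fold and Gclc 2.08-fold higher there than in cluster 1, and Gpx2 was 6.51-fold and Keap1 2.18-fold lower, against 55.6% of all genes called, 33.9% higher and 21.7% lower. Genes called higher in cluster 6 had a median gene span of 74102 bases, those called lower 7896 bases and all genes tested 28830 bases. Slc7a11 spans 551089 bases, Gclc 39951, Keap1 9632 and Gpx2 3222. The part of gene span, depth and mitochondrial share in these 4 differences was not tested.

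Within cells, the targets were too sparse to be followed jointly. After thinning each cell to 1500 UMIs, 67.9% of the 13281 cells had no UMI of the 7 targets other than Gpx2. A UMI of none of the 10 genes was found in 26.1% of cells, of 1 gene in 45.4%, of 2 in 21.6% and of 3 in 5.78%. Of the 45 pairs of genes, none had a median within-cluster Spearman correlation of 0.1 or more. The highest was 0.0567, for Gclm and Gpx2, the lowest was -0.0500, and 25 pairs lay above 0. At this depth correlations over single cells showed no co-variation that could be read.

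Spread over cells was a second view of the same counts. Gpx2 had a variance-to-mean ratio of 1.796 over thinned cells, where 1 is expected from counting alone, and 5.91% of the 2624 genes averaging 0.1 UMIs or more reached 1.5. The median of those genes was 1.05. Its thinned count had a median of 1 and a maximum of 14 UMIs per cell. Gclm and Nfe2l2, the other genes with a mean above 0.1, had ratios of 1.11 and 1.05. The remaining genes were sparser, with ratios from 1.00 for Keap1 to 1.24 for Hmox1. For the same relative spread, this ratio lies further above 1 when the mean is higher. The thinned mean was 1.097 UMIs for Gpx2, 0.143 for Gclm and 0.037 for both Gclc and Slc7a11, whose ratios were 1.235 and 1.223. The 2624 genes were not matched to Gpx2 on mean either. These ratios therefore set no order of spread among the genes.

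Summing molecules over cells gave more precise values. Cells of each cluster were ranked by the summed thinned UMIs of the targets other than the one examined, and the 3314 highest were set against the 3314 lowest, with a call at a ratio of at least 1.5 and intervals apart. Of the 8 targets, 3 were called higher in the high-ranked cells, beside 0.277% of the other 10102 genes tested. Gclc was 1.94-fold higher (1.499 to 2.536; 35.2 and 18.1 CPM), Nqo1 1.72-fold (1.40 to 2.11; 53.5 and 31.2 CPM) and Gclm 1.53-fold (1.35 to 1.74; 122 and 80.1 CPM). Because Gpx2 gave most of the summed molecules, these ranks followed Gpx2 for the most part. Both sets had like depth and mitochondrial share in the ranking that left out Gclc, with medians of 3054 and 3161 UMIs and 2.78% and 2.70%.

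The other targets were not called. Slc7a11 was at 32.2 and 22.5 CPM in high- and low-ranked cells, a ratio of 1.43 (1.12 to 1.84). Srxn1 had a ratio of 1.38 (0.870 to 2.22), Hmox1 1.19 (0.997 to 1.43) and Gpx2, ranked by the other 7, 1.18 (1.12 to 1.23). Txnrd1 had a ratio of 0.966 (0.8004 to 1.17). The regulators, which are in no sum, were nearly level, Nfe2l2 at 1.04 (0.913 to 1.18) and Keap1 at 1.05 (0.837 to 1.33).

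With Gpx2 taken out of the sum, an alternative added after the data were seen, none of the other 7 targets reached 1.5, beside 0.247% of 10103 genes. The ratios were 1.47 (1.16 to 1.88) for Gclc, 1.47 (0.901 to 2.42) for Srxn1, 1.41 (1.102 to 1.82) for Slc7a11, 1.27 (1.04 to 1.55) for Nqo1, 1.21 (1.01 to 1.45) for Hmox1, 1.19 (1.05 to 1.35) for Gclm and 1.04 (0.866 to 1.24) for Txnrd1. In this ranking the low set had no target UMI and the high set about 1 per cell, so the contrast between the sets was small. The call of 3 targets thus rests on Gpx2. Of the 73 other pathway genes tested against the full sum, 3 were called, Gsta3 at 1.75, Aldh3a1 at 1.64 and the prostaglandin reductase Ptgr1 at 1.64. Without Gpx2 in the sum, 1 of the 73 was called, Aldh3a1 at 1.53, and Gsta3 was at 1.09 and Ptgr1 at 1.44.

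**Figure D4:**
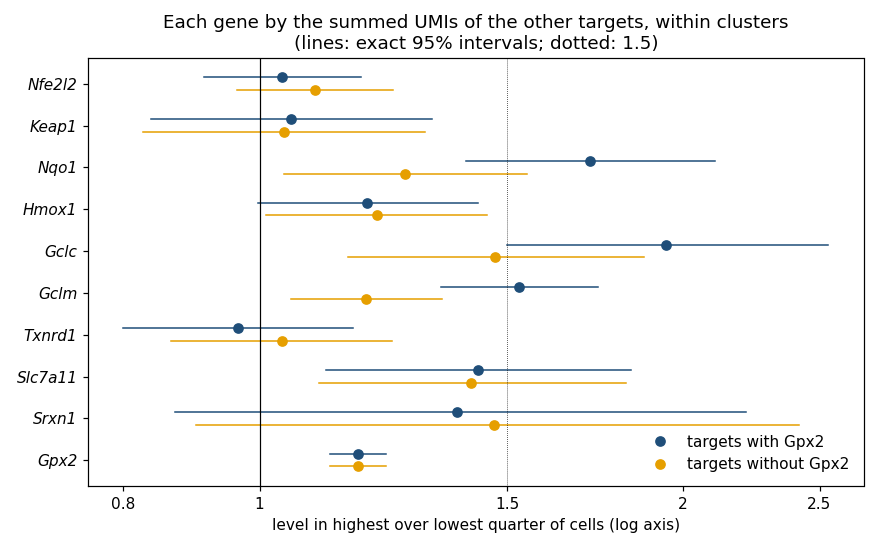
Ratio of each gene's level between the highest-ranked and lowest-ranked cells of each cluster, ranked by the summed UMIs of the other targets, with all 8 targets and without Gpx2 in the sum; bars are 95% intervals. Gclc, Nqo1 and Gclm exceed 1.5 only when Gpx2 is in the sum.

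Pairs of genes were then compared directly. For each gene, its UMIs in cells that held a UMI of another gene were divided by the number expected if cells with and without that UMI had the same level within each cluster, and a call needed a ratio of at least 1.5 with an interval above 1. Of 90 ordered pairs, 7 were called and 67 had a ratio above 1. Both directions of a pair rest on the same cells that hold both genes, so the ordered pairs are not independent. Gclc with Slc7a11 and Nqo1 with Slc7a11 were called in both directions. No share over all genes is given for ratios above 1, so the 67 is not read as a result. The called pairs all lay among Slc7a11, Gclc, Nqo1, Hmox1 and Gclm. Among all genes, the same rule called between 1.10% (cells with Gclm) and 2.97% (cells with Slc7a11), depending on the gene that chose the cells.

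In the 433 cells with an Slc7a11 UMI, Gclc was 1.795 times expected (1.24 to 2.51; 34 UMIs against 18.9), Hmox1 1.74 times (1.27 to 2.32) and Nqo1 1.70 times (1.21 to 2.33), beside the 2.97% of genes called. In the 445 cells with a Gclc UMI, Slc7a11 was 1.79 times expected (1.24 to 2.505), beside 2.03%. Over all 13281 thinned cells, the Spearman correlation of Gclc and Slc7a11 was 0.0333, and the median of the values within 11 clusters was -0.0125. That median weighs small and large clusters alike and does not show this pair together. In the 687 cells with an Nqo1 UMI, Gclc was 1.72 times (1.26 to 2.30) and Slc7a11 1.60 times expected (1.13 to 2.20), beside 1.37%. In the 1664 cells with a Gclm UMI, Gclc was 1.52 times expected (1.23 to 1.87), beside 1.10%.

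In the 815 cells with an Hmox1 UMI no gene was called, beside 1.34% of all genes; Gclc was 1.43 times expected (1.03 to 1.93) and Gclm 1.31 times (1.101 to 1.539). No gene was called in cells with a UMI of Txnrd1 or Srxn1, beside 1.42% and 1.86%.

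Gpx2 gave smaller but tighter ratios. In the 7201 cells with a Gpx2 UMI, Nqo1 was 1.47 times expected (1.33 to 1.62), Gclc 1.42 times (1.27 to 1.59) and Gclm 1.35 times (1.28 to 1.43), none of them called, beside 2.37% of genes. Txnrd1, in contrast, was 0.879 times expected (0.798 to 0.966) and Nfe2l2 0.912 times (0.856 to 0.971). These last ratios lie below 1 by little.

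No target was called in cells with Nfe2l2. No share over all genes is given for intervals above 1 alone, so such intervals below are not read as a result. In the 1696 cells with an Nfe2l2 UMI, Nqo1 was 1.28 times expected (1.06 to 1.53), Slc7a11 1.27 times (1.01 to 1.59), Gclm 1.15 times (1.01 to 1.29) and Gpx2 0.978 times (0.933 to 1.02), beside 1.35% of genes. The ratios of Hmox1 (1.11), Gclc (1.01), Txnrd1 (1.104) and Srxn1 (0.855) had intervals that include 1. In the 596 cells with a Keap1 UMI no gene was called, beside 1.21%, and Gclm was 0.766 times expected (0.593 to 0.975). All intervals cover counting error in the cells examined only, not error in the expected numbers.

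**Figure D5:**
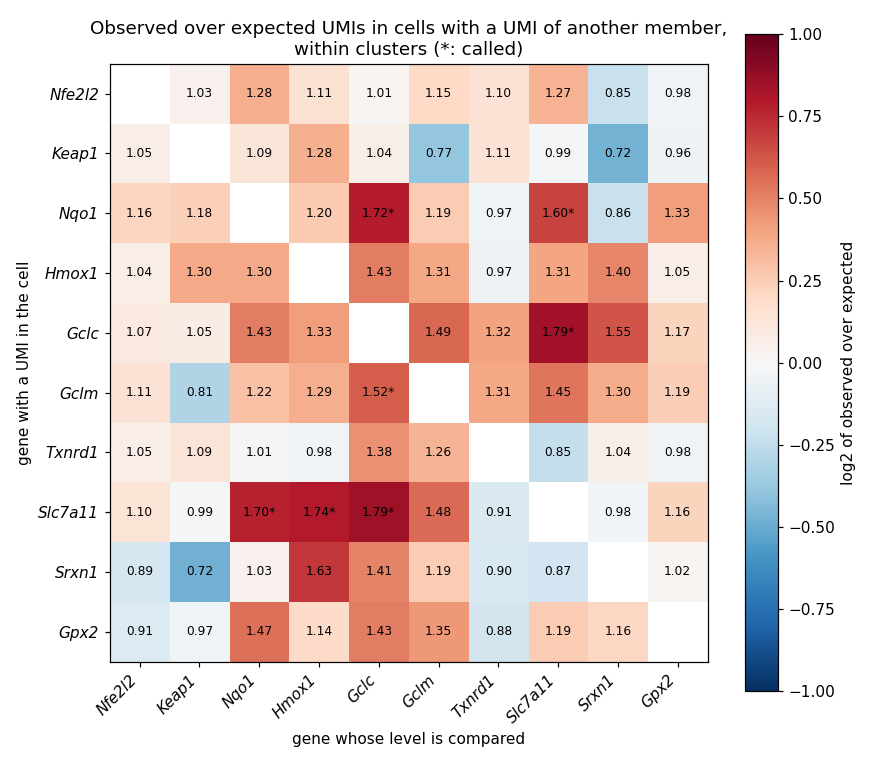
Observed over expected UMIs of each gene (columns) in thinned cells that hold a UMI of another gene (rows), within clusters. The highest ratios lie among Slc7a11, Gclc, Nqo1 and Hmox1, up to 1.795, and ratios with Nfe2l2 lie between 0.855 and 1.28.

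Over the 11 clusters of at least 100 cells, levels of Gclm and Gpx2 went together, with a Pearson correlation of log2(CPM + 1) of 0.74, and those of Nqo1 and Hmox1 with 0.71. Txnrd1 and Gpx2 went in opposite directions, at -0.64. Nfe2l2 correlated at 0.38 with Nqo1, 0.40 with Hmox1, -0.18 with Gpx2 and -0.51 with Slc7a11. The clusters share 1 library and differ in depth, so these values describe 11 points and no more.

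Among 6299 genes of at least 20 CPM, the genes most like each pathway gene over these clusters were ranked by the same correlation. Gpx2 was most like Adm (0.96), Klf4 (0.96) and Krt14 (0.95), of which Klf4 is a transcription factor and Krt14 a keratin of squamous epithelium. Nqo1 was most like Id2 (0.91), Blvrb (0.86), a biliverdin reductase, and Iah1 (0.85), and Hmox1 most like Dnajb9 (0.94), Spsb1 (0.92) and Decr1 (0.92). Gclc was most like Nfkbiz (0.95), Cgnl1 (0.86) and Car5b (0.84), Gclm most like Snhg16 (0.95), Ephx1 (0.89) and Cfdp1 (0.87), and Slc7a11 most like Map7 (0.93), Alcam (0.92) and Nipal2 (0.91). For Nfe2l2 the genes were F2r (0.91), Slc39a7 (0.91) and Basp1 (0.86), for Keap1 Parp1 (0.97), Smarcb1 (0.94) and Tsfm (0.94), and for Txnrd1 Vps26a (0.88), Ppp2r5a (0.87) and Cyp20a1 (0.85). Of these 27 genes, Blvrb and Ephx1 are in the pathway list. Srxn1 had too few UMIs to be ranked.

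Over thinned cells, the summed UMIs of the 8 targets correlated most with Fxyd3 (Spearman 0.303), Cbr2 (0.248), Wfdc18 (0.238), Ifitm3 (0.237), Ly6d (0.224), Rpl13 (0.212), Rps4x (0.204), Krt14 (0.204), Ucp2 (0.194) and Ly6a (0.186), among 2621 genes. The lowest values were those of Acta2 (-0.263), Vim (-0.250) and Tpm1 (-0.248), genes of the contractile and mesenchymal cytoskeleton. Without Gpx2 the highest were Fth1 (0.0946), the ferritin heavy chain, Sat1 (0.0726) and Id2 (0.0608). The values with all 8 targets thus followed the contrast between epithelial and mesenchymal-like cells that Gpx2 itself showed.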

How the data were processed

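Droplet single-cell RNA of 1 mouse culture was read from the deposited matrix of raw UMI counts. The file headers name CellRanger 8.0.1, and the submitters' processing notes name mm10, Cell Ranger and Scanpy 1.8.2. Not given in the sources used here are which of the 3 libraries the matrix holds, its strand setting and its handling of intronic reads. It was used as 1 sample. No barcode had fewer than 500 UMIs.

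CPM, shares and ratios were computed here from these counts, with exact 95% Poisson or binomial (Clopper-Pearson) intervals that cover counting error only. Clustering used scanpy 1.11.5 and igraph 0.11.9, with counts scaled to 10000 per cell, log1p, 2000 variable genes, 30 principal components, 15 neighbours and Leiden resolution 0.6. The features left out 103 genes, namely the 10 genes, 91 pathway genes and the 2 added sequences GFP and Scar. A name needed 50 cells and exactly 1 marker list that had over 50% (and at least 3) of its genes raised 1.5-fold in at least 5% of cells and at least 1 gene in the top 10. Cluster 4 also had over 50% of the interferon and hypoxic markers raised, with none in its top 10. The top 10 were ranked by ratio to all other cells among genes found in 25% or more of the cluster. This scoring was set after the clusters were seen. Scrublet called 1 of 14925 cells, too few for a working call, so doublets were not removed. Thinned values leave out 1644 cells under 1500 UMIs. Genes other than the 10 needed 100 UMIs for the ranked sets and 5 expected UMIs for the pairs.

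Named were the 10 genes, up to 5 pathway genes per direction with the largest ratios between mesenchymal-like and cycling-like cells, the 10 genes most correlated with the summed targets and the 3 most like each gene over clusters. The members and lists were chosen with earlier results of these data known. Alternatives covered cell filters, doublet scores, clustering, denominators, thinning, ranking and the call ratio. The call between clusters was tested on simulated counts. For the ranked sets, only genes without a link to the ranking were checked in this way. The rule for pairs of genes was not simulated.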

Additional observations from a re-analysis of the deposited data

How the results depend on the processing

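The count of genes called between mesenchymal-like and cycling-like cells was 4 under every alternative except a call ratio of 1.5, where it was 5 because Nqo1 was added, and no gene called in the main comparison reversed. The log2 ratio of Gpx2 in that comparison ranged from -7.66 to -3.85 and that of Slc7a11 from -3.13 to -2.10. Of the 10 genes, 8 were called in some pair of clusters and 8 to 10 under the alternatives, with Nfe2l2 and Srxn1 the ones added. The summed level of the 10 genes, 1122 CPM, was 1154 CPM without the UMIs of GFP and Scar and 1132 CPM with at least 1000 genes and 2000 UMIs per cell. The median within-cluster correlation of gene pairs, 0.00125, was 0.0182 without thinning and -0.00226 without the highest doublet scores. Of the 3 targets called against the sum of the others, 0 were called without Gpx2 in the sum. Ranking cells without regard to cluster lowered the Nqo1 ratio to 1.32 and raised that of Slc7a11 to 1.85, past the call. Without thinning, Slc7a11 was at 1.57. Ratios that were not called crossed 1, with Hmox1 at 0.940 without regard to cluster, Srxn1 at 0.932 at 2500 UMIs and Txnrd1 at 1.11 with another random seed. The causes of these shifts were not tested. With 1 culture, differences between cultures were not measured, and Srxn1, with 336 UMIs, is the least precise of the 10. No paired analysis was possible because there was 1 sample.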
